A study of Mus musculus with 4 samples.

Results

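The 54 genes described here encode histone methyltransferases, histone demethylases, histone acetyltransferases, histone deacetylases and BET proteins. They were chosen by name for these activities, with earlier results of these data known. Each was represented by the RefSeq transcript with most reads over the 4 RNA-Seq libraries, and all 54 were found among the 22459 gene symbols of the files. A gene was called expressed when its RPKM (reads per kilobase of exon, scaled to the mapped reads of the library) was above 1 at day 0 or day 2 in the Ad-GFP population. This held for 53 of the 54 genes and for 11537 symbols in all. The exception was Hdac9, a class IIa deacetylase, which had 0 reads in 3 libraries and 1 read in Ad-Cre cells at day 0. A count of 3 reads, the limit that a count of 0 allows, would be 0.039 RPKM or less for this transcript.

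The cells were brown preadipocytes, precursors of brown fat cells, from E18.5 embryos of the C57BL/6J strain, immortalized with the SV40T antigen. They were Mll3-/- with floxed Mll4 alleles, so all 4 libraries carry the Mll3 deletion, also those labelled WT. Infection with adenoviral GFP (Ad-GFP) left the floxed alleles in place and gave Mll3-/- cells, and infection with adenoviral Cre (Ad-Cre) gave Mll3-/-;Mll4-/- cells. Cells were taken 2 days after confluence (day 0, D0) and 2 days after adding insulin, T3, indomethacin, dexamethasone and IBMX (day 2, D2), with 1 library per condition. No separate clone or second isolate is labelled, so clone, virus and genotype cannot be told apart, and differences between conditions cannot be checked against replicates. The comparisons asked which of these genes changed level during early adipogenesis, and whether that differed in cells without MLL4.

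Chromatin enzymes of this kind place, remove or read chemical groups on histone tails. Methyltransferases of the SET family and DOT1L methylate lysines, lysine demethylases of the LSD1 and Jumonji families remove these methyl groups, acetyltransferases and deacetylases add and remove acetyl groups, and BET proteins bind acetylated histones through paired bromodomains. MLL3 and MLL4, which these cells lack in part or in full, methylate H3K4 at enhancers, where p300 and CBP acetylate H3K27. In fat precursors the H3K9 methyltransferases G9a and SETDB1, the PRC2 enzyme EZH2 and several deacetylases are known as regulators of adipogenic genes.

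Totals of 15831915 to 22099995 reads were counted on exons per library. The whole Mll4 transcript (Kmt2d) held 6304, 8530, 6316 and 5595 reads in Ad-GFP cells at D0 and D2 and Ad-Cre cells at D0 and D2, and a whole-transcript count cannot show the loss of the few floxed exons. The whole Mll3 transcript (Kmt2c) held 522, 1224, 463 and 451 reads in the same order, or 1.80, 3.17, 1.41 and 1.49 RPKM, so reads on it were present in all 4 libraries. The paper made the Mll3 allele with a gene trap, not with floxed exons. All 4 libraries carry that allele, so none without it was there for comparison, and these reads do not check the deletion. Of 10 adipocyte markers, 8 were expressed, and all 8 were more than 2.5-fold higher at D2 than at D0 in Ad-GFP cells and more than 2.5-fold lower in Ad-Cre than Ad-GFP cells at D2. Their summed level over the 10 genes was 31.6 and 2107 RPKM in Ad-GFP cells against 17.3 and 514 RPKM in Ad-Cre cells at the same days. Plin1, Cidec, Adipoq and Prdm16 were at 0.546, 0.649, 0.142 and 0.554 RPKM in Ad-GFP cells at D0. They were called expressed through the Ad-GFP D2 library alone, so the filter partly set their direction in both comparisons. Ucp1, which marks mature brown fat, had at most 1 read per library, and 7 markers of muscle, leukocytes, endothelium and epithelium had at most 4.

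The Ad-Cre D2 library differed from the others along transcript length. When all expressed genes were parted into 10 equal bins by exon length, the median Ad-Cre/Ad-GFP log2 ratio at D2 went from 0.47 in the shortest bin to −0.76 in the longest, and that of D2 to D0 in Ad-Cre cells from 0.77 to −0.64. The same medians stayed between 0.08 and 0.18 for D2 to D0 in Ad-GFP cells, and between −0.19 and 0.03 for Ad-Cre to Ad-GFP at D0. The genes studied here have long transcripts, with a median exon length of 4282 bases against 2744 over all expressed genes, and 39 of the 53 lie in the longer 5 bins. Ratios with the trends over exon length and GC content of all expressed genes divided out, called trend-corrected ratios, are therefore given for most results that rest on the Ad-Cre D2 library. The sign of the Ad-Cre/Ad-GFP ratio at D2 turned with this correction for 14 of the 53 genes, namely Setd2, Ehmt1, Ehmt2, Smyd2, Kdm2a, Kdm5a, Kdm5b, Crebbp, Kat6b, Hdac2, Hdac5, Hdac8, Sirt2 and Sirt6. The same count was not made over all expressed genes, so it is not read as a trait of these enzymes. Of the 8 expressed adipocyte markers, 7 were still lower past 2.5-fold in Ad-Cre cells at D2 after the correction. How much of any difference is due to this trend was not tested.

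**Figure D1:**
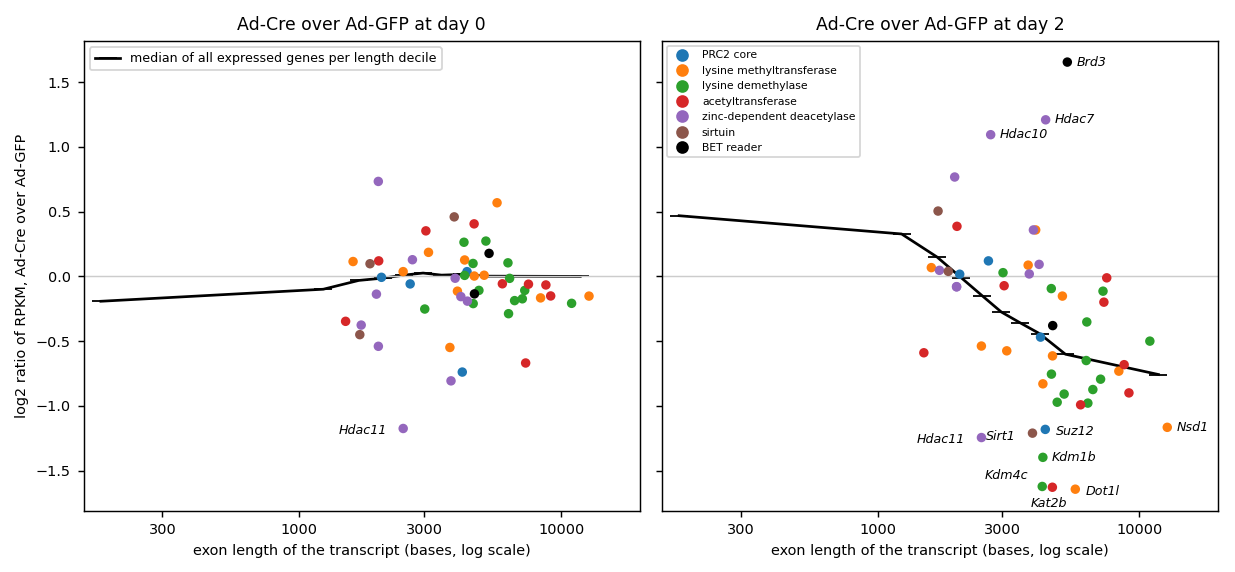
Log2 ratio of RPKM, Ad-Cre to Ad-GFP cells (y axis) against exon length in bases (x axis, log scale) at D0 (left) and D2 (right). Coloured points are the 53 expressed genes by role, and the black line joins the median ratios of all expressed genes in 10 bins of equal size by length. At D2 the line goes from 0.47 in the shortest bin to −0.76 in the longest, and Dot1l, Kdm4c, Kat2b and Hdac11 lie below it while Brd3 lies above.

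Promoter sequences are shown for 3 of the genes, because Dot1l and Brd3 differed most between Ad-Cre and Ad-GFP cells at D2 and Hdac11 was low in Ad-Cre cells at both days. Each has a single start in the RefSeq promoter table, which covers 250 bases before and 50 bases after the start on GRCm38.p6, a later build than the NCBI37/mm9 of the counts. Capitals mark matches to the motifs named after the sequences, on either strand, and all are written 5′ to 3′ on the strand of the gene: Dot1l from chr10:80754953-80755252 (plus strand), Brd3 from chr2:27475349-27475648 (minus strand) and Hdac11 from chr6:91156565-91156864 (plus strand).
Dot1l: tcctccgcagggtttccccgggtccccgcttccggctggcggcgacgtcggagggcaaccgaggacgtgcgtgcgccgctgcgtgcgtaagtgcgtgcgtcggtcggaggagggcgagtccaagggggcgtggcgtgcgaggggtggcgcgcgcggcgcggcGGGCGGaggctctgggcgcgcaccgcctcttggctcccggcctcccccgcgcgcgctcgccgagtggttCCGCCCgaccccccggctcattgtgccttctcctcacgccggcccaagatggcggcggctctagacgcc
Brd3: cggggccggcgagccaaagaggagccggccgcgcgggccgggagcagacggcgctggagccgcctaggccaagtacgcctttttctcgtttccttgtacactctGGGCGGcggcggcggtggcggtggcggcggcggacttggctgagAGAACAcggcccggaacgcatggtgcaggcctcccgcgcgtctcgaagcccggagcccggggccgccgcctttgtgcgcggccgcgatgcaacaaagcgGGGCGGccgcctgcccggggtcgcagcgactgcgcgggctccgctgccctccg
Hdac11: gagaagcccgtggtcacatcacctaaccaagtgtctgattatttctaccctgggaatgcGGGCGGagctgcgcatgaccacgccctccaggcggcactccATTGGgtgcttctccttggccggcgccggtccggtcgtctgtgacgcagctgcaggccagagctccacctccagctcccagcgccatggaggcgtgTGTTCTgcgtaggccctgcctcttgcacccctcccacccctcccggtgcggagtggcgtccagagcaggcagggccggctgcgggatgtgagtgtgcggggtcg

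The motifs searched were the GC box bound by SP and KLF factors (GGGCGG), the CCAAT box bound by NF-Y (CCAAT), a pair of E2F sites (TTTCCCGC and TTTGGCGC), a C/EBP site (TTGCNNAA), a single arm of the glucocorticoid receptor element (AGAACA) and the cAMP response element (TGACGTCA). Of the 54 genes, 43 had a promoter in the table, with 62 starts. The GC box was present in 64.5% of these 62 windows and in 35.7% of all 32851 windows of the same length. The latter were not limited to expressed genes, and the share over expressed genes was not computed. The difference is therefore not read as a trait of these enzymes. The GC box occurred 2 times in the Dot1l window, 2 times in the Brd3 window and 1 time in the Hdac11 window. The CCAAT box was in 38.7% of the 62 windows and 37.4% of all, the C/EBP site in 9.68% and 10.8%, and the arm of the glucocorticoid receptor element in 16.1% and 19.0%. The cAMP response element was in 3.23% and 1.79%, and the E2F sites in 1.61% each, against 1.07% and 0.514% of all windows. A match describes these letters only and is not a measured binding site.

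The 53 expressed genes covered a wide range of levels. Their median was 13.7 and 14.9 RPKM in Ad-GFP cells at D0 and D2 and 13.6 and 12.0 RPKM in Ad-Cre cells, above the medians of all expressed genes in the same libraries (8.23 to 9.66 RPKM). The highest levels belonged to Brd2 at D0 in both cell populations (69.5 RPKM with Ad-GFP and 63.3 RPKM with Ad-Cre), Ehmt2 at D2 in Ad-GFP cells (69.0 RPKM) and Brd3 at D2 in Ad-Cre cells (90.7 RPKM). Smyd3 and Kdm1b held the lowest level of each library, between 1.36 and 2.01 RPKM. The fewest reads behind an expressed gene were 95, for Hdac11 in Ad-Cre cells at D2.

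**Figure D2:**
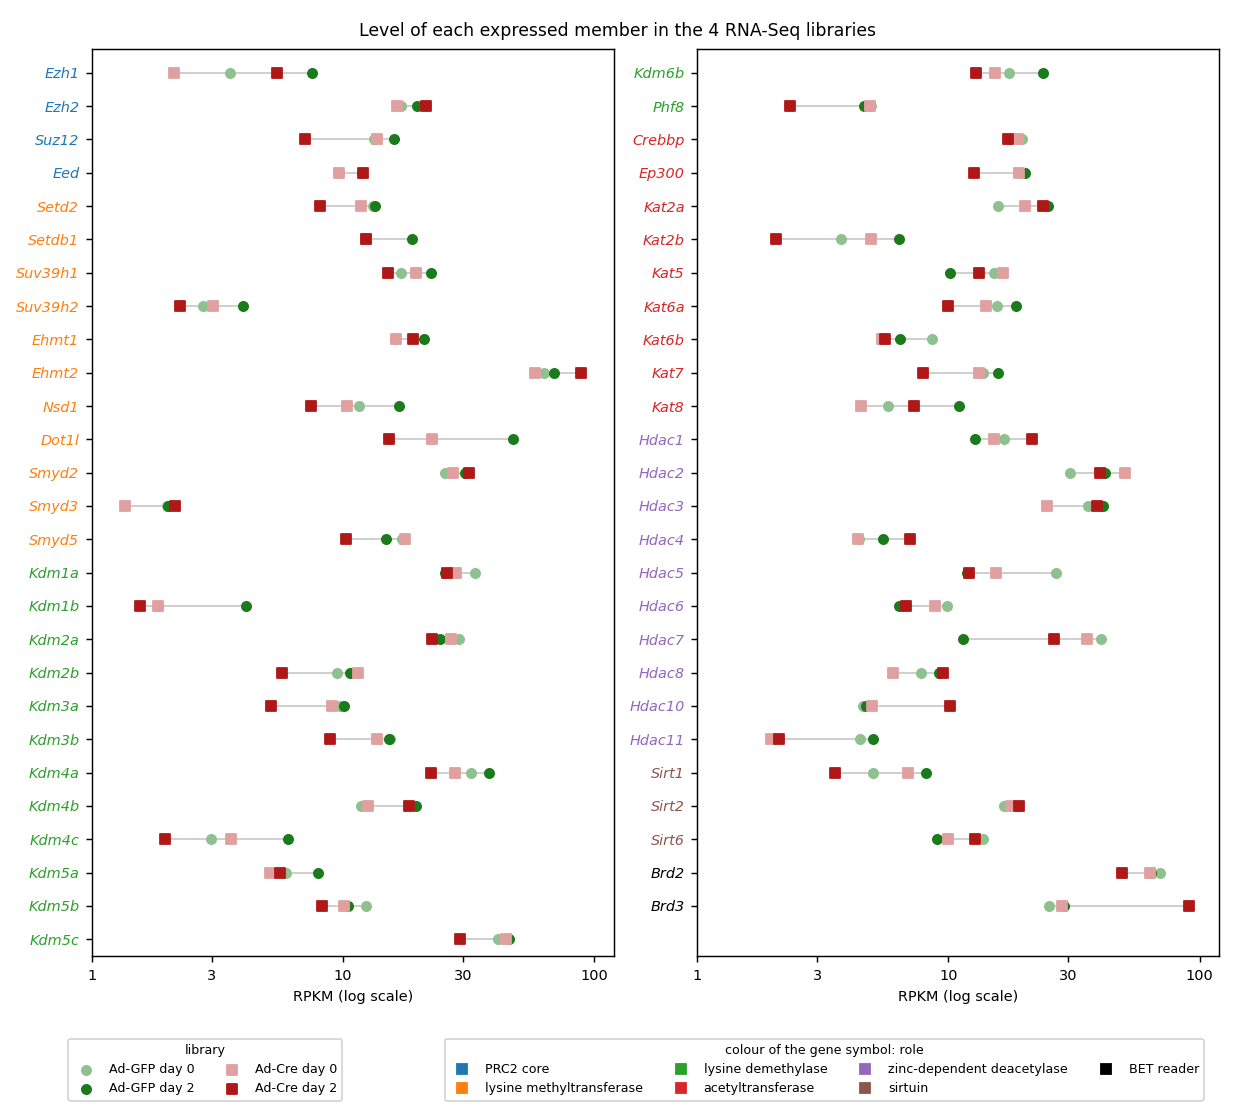
Level of each of the 53 expressed genes in the 4 libraries, in RPKM on a log axis, with circles for Ad-GFP and squares for Ad-Cre cells, light at D0 and dark at D2. Grey lines join the lowest and the highest library. Ezh1, Dot1l, Kdm1b, Kdm4c, Kat2b, Hdac7, Hdac11 and Brd3 span more than 2.5-fold between the lowest and the highest library.

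Counts past the study's cutoff of 2.5-fold were small in every comparison and are read here against the share of all expressed genes past it. Between D0 and D2 in Ad-GFP cells, 1 of the 53 genes was higher past 2.5-fold (Dot1l), where 8.37% of all expressed genes were, and 1 was lower (Hdac7), where 12.7% were. Between the same days in Ad-Cre cells, 2 were higher (Ezh1 and Brd3, background 8.68%) and 0 were lower (background 10.0%). Comparing Ad-Cre with Ad-GFP cells at D0, 0 were higher and 0 lower past 2.5-fold, against backgrounds of 1.27% and 4.12%. At D2, 1 was higher in Ad-Cre cells (Brd3, background 8.16%) and 4 were lower (Dot1l, Kdm1b, Kdm4c and Kat2b, background 10.1%). In shares of the 53 genes these counts run from 0% to 7.55%, each below its background. The 4 comparisons share libraries and are not independent of each other.

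A cutoff of 1.5-fold, taken from the median ratio of all expressed genes, was also used. In these 4 comparisons it gave shares below the background in all but 1 count. In Ad-GFP cells from D0 to D2, 6 of the 53 genes were higher (background 22.6%) and 5 lower (background 26.7%). Ad-Cre against Ad-GFP cells at D0 gave 2 higher (7.66%) and 4 lower (11.7%). In Ad-Cre cells between the days, 9 were higher (26.9%) and 12 lower (27.4%). At D2, 5 were higher in Ad-Cre than Ad-GFP cells (26.9%) and 17 were lower, or 32.1% of the 53 against a background of 26.5%. With the trends over length and GC content divided out, these last counts became 7 higher (21.0% of all) and 8 lower (19.3% of all), and the share of lower genes was then below that of all expressed genes as well.

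The median log2 ratio of the 53 genes was 0.20 in Ad-GFP cells from D0 to D2, against 0.15 over all expressed genes, and −0.06 for Ad-Cre to Ad-GFP at D0, against −0.02. For Ad-Cre to Ad-GFP at D2 it was −0.38 against −0.16, and the trend-corrected values were −0.29 against −0.16. In Ad-Cre cells between the days it was −0.25 against −0.01, and −0.04 against −0.01 after the correction.

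**Figure D3:**
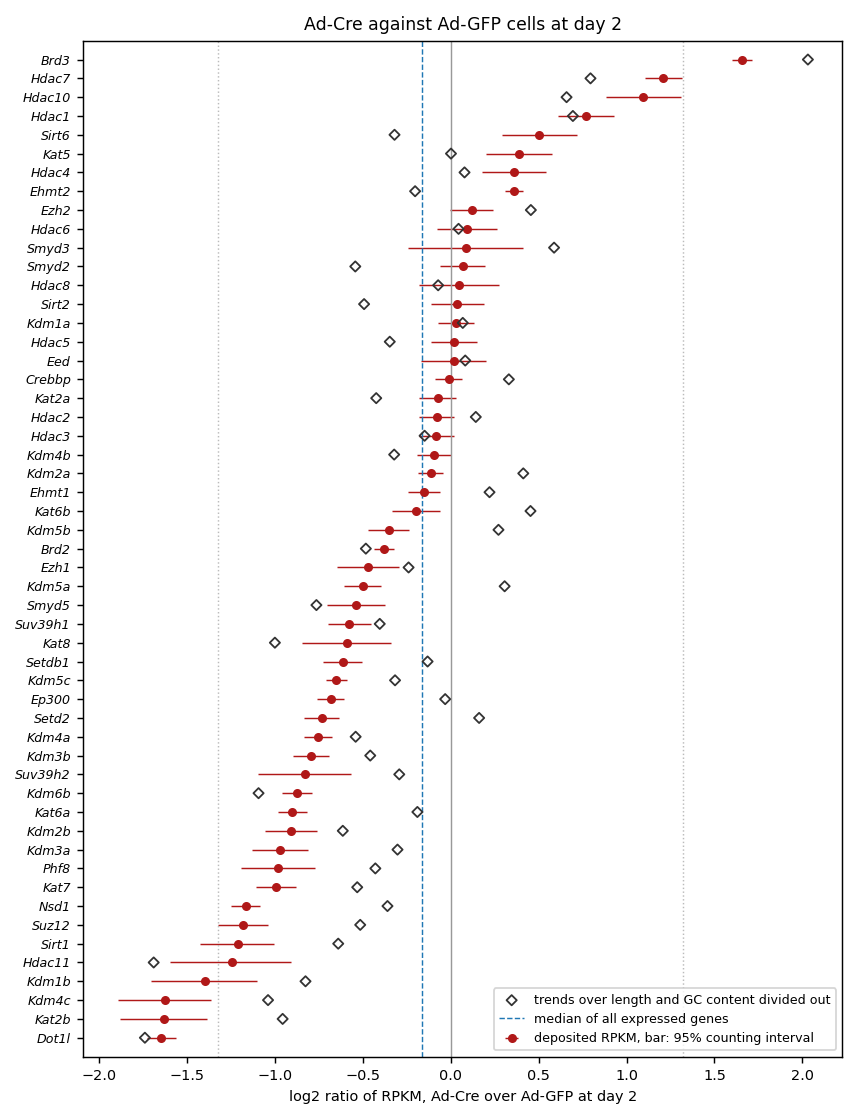
Log2 ratio of RPKM, Ad-Cre to Ad-GFP cells at D2 (x axis) for the 53 expressed genes, ordered by ratio (y axis). Red points are deposited values with exact binomial 95% intervals for counting error, open diamonds the trend-corrected ratios, the dashed line the median of all expressed genes at −0.16 and the dotted lines 2.5-fold. Brd3 at 1.66 and Dot1l at −1.64 mark the ends of the order, and both stay there after the correction, with Hdac11 next to Dot1l.

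The core of PRC2, the Polycomb complex that methylates H3K27, is formed here by the catalytic subunits Ezh1 and Ezh2 and by Suz12 and Eed. Ezh1, the catalytic subunit known from non-dividing cells, was measured at 3.55 RPKM at D0 and 7.54 RPKM at D2 in Ad-GFP cells, against 2.13 and 5.45 RPKM in Ad-Cre cells. It was higher at D2 in both populations, 2.12-fold in Ad-GFP cells (log2 ratio 1.09, 95% interval 0.88 to 1.30) and 2.56-fold in Ad-Cre cells (log2 ratio 1.36, interval 1.1 to 1.62). These intervals, here and for every ratio between libraries, are exact binomial intervals of the ratio of reads. They cover counting error only, and compare libraries rather than conditions. Ad-Cre cells held less Ezh1 than Ad-GFP cells at D0, the log2 ratio being −0.74 (interval −1.03 to −0.46), and the ratio at D2 was −0.47, or −0.24 after the correction.

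Ezh2, the catalytic subunit of dividing cells, varied little as deposited, from 16.4 RPKM in Ad-Cre cells at D0 to 21.5 RPKM in Ad-Cre cells at D2. Its Ad-Cre/Ad-GFP log2 ratio at D2 was 0.12, and 0.46 after the correction. Eed, the subunit that binds methylated H3K27, lay between 9.60 and 12.0 RPKM. Suz12, a scaffold subunit, was measured at 13.3 and 15.9 RPKM in Ad-GFP cells against 13.6 and 7.03 RPKM in Ad-Cre cells at D0 and D2. The Ad-Cre D2 library was the low one of the 4, with a log2 ratio to Ad-GFP of −1.18 (interval −1.32 to −1.04), and the trend-corrected ratio was −0.51. Of the 50-base windows of the longest annotated Suz12 transcript, 17.3% also matched elsewhere in the genome with at most 2 mismatches. An exon of Gm16706 on the other strand overlaps this transcript.

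The accessory subunits of PRC2 (7 genes, all expressed) moved apart. From D0 to D2 in Ad-GFP cells 1 was higher past 2.5-fold, Jarid2 (3.96 to 14.2 RPKM), and 1 was lower, Phf19 (7.10 to 2.28 RPKM). At D2, Jarid2 was lower in Ad-Cre cells (log2 ratio −1.61, trend-corrected −1.08) and Phf19 higher (1.46, corrected 1.53). Between the days in Ad-Cre cells, and between the populations at D0, 0 of the 7 passed the cutoff. Of 18 subunits of PRC1, the complex that reads and extends the Polycomb state, Pcgf6 was higher past 2.5-fold in Ad-GFP cells at D2 than at D0 (log2 ratio 1.39). In Ad-Cre cells 2 were higher (Cbx6 and Ring1, 1.90 and 1.76) and 2 lower (Pcgf3 and Pcgf5, −1.71 and −1.40), and after the correction Ring1 (1.15) and Pcgf3 (−1.20) were inside the cutoff. At D2, Cbx6 was higher in Ad-Cre than Ad-GFP cells, with 210 against 46.5 RPKM (log2 ratio 2.17, corrected 2.07), and Pcgf5 was lower (−1.39, corrected −1.34, on 36 and 120 reads). At D0 the comparison passed the cutoff for 0 of the 18.

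Among the 11 other lysine methyltransferases, Dot1l gave the largest difference between the populations in the change from D0 to D2 of all 53 expressed genes. DOT1L is the methyltransferase of H3K79, a mark of transcribed gene bodies, and is the only enzyme of this group without a SET domain. The gene lies on chromosome 10 from 80217951 to 80258206 on NCBI37/mm9 (plus strand). Its transcript NM_199322 held 1493 reads at D0 and 6233 at D2 in Ad-GFP cells against 2512 and 1564 reads in Ad-Cre cells. These were 15.2, 47.6, 22.6 and 15.2 RPKM, so a single library, Ad-GFP at D2, was high. Its level was 3.12-fold higher at D2 than at D0 in Ad-GFP cells (log2 ratio 1.64, interval 1.56 to 1.73), and in Ad-Cre cells the log2 ratio was −0.57 (interval −0.66 to −0.48). At D2 it was 3.13-fold lower in Ad-Cre than Ad-GFP cells (log2 ratio −1.64, interval −1.73 to −1.56). The difference between the changes in the 2 populations was −2.21 on the log2 scale (interval −2.34 to −2.09, by a normal approximation of the counting error). None of its 50-base windows matched elsewhere, and the trend-corrected ratio at D2 was −1.74. With the length trend alone divided out it was −1.16, inside the 2.5-fold cutoff.

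The H3K9 methyltransferases, which place the marks of silent chromatin, differed less. Ehmt2, which encodes G9a, was the most abundant of them at 63.0 and 69.0 RPKM in Ad-GFP cells against 58.3 and 88.5 RPKM in Ad-Cre cells, with a ratio at D2 of 0.36 that the correction turned to −0.20. Its partner Ehmt1 (GLP) lay between 16.1 and 21.1 RPKM. Setdb1 was measured at 12.3, 18.8, 12.3 and 12.3 RPKM, with Ad-GFP cells at D2 the high library. Its Ad-Cre/Ad-GFP log2 ratio at D2 was −0.61, and −0.13 after the correction. The corrected log2 ratios of D2 to D0 were 0.54 with Ad-GFP and 0.43 with Ad-Cre. For Setdb1, 9.73% of the windows matched elsewhere, and an exon of Lass2 overlaps it. Suv39h1 and Suv39h2, the enzymes of pericentromeric heterochromatin, had log2 Ad-Cre/Ad-GFP ratios at D2 of −0.58 and −0.83, and trend-corrected ratios of −0.40 and −0.29.

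Nsd1 and Setd2 methylate H3K36 in transcribed genes and have some of the longest transcripts, of 12784 and 8350 bases. Nsd1 was measured at 11.6, 16.7, 10.4 and 7.44 RPKM and had an Ad-Cre/Ad-GFP log2 ratio at D2 of −1.17, which the correction moved to −0.36. Setd2 had a ratio of −0.73, which became 0.16. The Smyd enzymes, which methylate histone and other substrates, had ratios at D2 of 0.07 for Smyd2, 0.09 for Smyd3 and −0.54 for Smyd5, and corrected ratios of −0.54, 0.59 and −0.76. For Smyd3, with 100 to 174 reads per library, the interval at D2 ran from −0.24 to 0.41.

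Of 13 further lysine methyltransferases that are not among the 54 genes, 0 passed the 2.5-fold cutoff between the days in Ad-GFP cells or between the populations at D0. In Ad-Cre cells, Kmt5c was higher at D2 than at D0 (log2 ratio 1.66) and Setd7 lower (−1.62). At D2, Kmt5c was higher in Ad-Cre than Ad-GFP cells (1.38) and Nsd2 lower (−1.34). After the correction 0 of the 13 passed the cutoff in either of these comparisons. Of 7 arginine methyltransferases 1 passed it, Prmt2, which was lower at D2 than at D0 in Ad-GFP cells (log2 ratio −1.93), and 0 passed it in the other 3 comparisons (after the correction Prmt2 also passed it between the days in Ad-Cre cells). Of 6 heterochromatin proteins, which bind methylated H3K9 or work with the enzymes that place it, 0 passed the cutoff in any of the 4 comparisons.

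The 14 lysine demethylases had a median Ad-Cre/Ad-GFP log2 ratio of −0.77 at D2 and −0.11 at D0, and 11 of the 14 lay below the median of all expressed genes at D2 (−0.16). They are long, with a median exon length of 5714 bases. The trend-corrected median at D2 was −0.37, with 10 of the 14 below that of all expressed genes (−0.16), which the correction is built to keep. Both demethylases past the 2.5-fold cutoff, Kdm1b and Kdm4c, were low-level genes.

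Kdm1b (LSD2), which demethylates H3K4, held 135 and 403 reads in Ad-GFP cells against 154 and 120 reads in Ad-Cre cells, or 1.83, 4.10, 1.84 and 1.55 RPKM. The Ad-GFP D2 library was again the high one of the 4. The log2 ratio of D2 to D0 in Ad-GFP cells was 1.16 (interval 0.88 to 1.45), that of Ad-Cre to Ad-GFP at D2 was −1.40 (interval −1.70 to −1.1), and the trend-corrected ratio at D2 was −0.83. With TMM factors, another scaling of the libraries, the ratio was −1.24, also inside 2.5-fold. Kdm4c, which removes methyl groups from H3K9 and H3K36, was measured at 2.98, 6.02, 3.58 and 1.95 RPKM, on 150 to 589 reads. It was 3.08-fold lower in Ad-Cre than Ad-GFP cells at D2 (log2 ratio −1.62, interval −1.89 to −1.36), with a trend-corrected ratio of −1.04. Both were past 2.5-fold before the correction and inside it after.

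The paralogs of these enzymes stood at other values. Kdm1a (LSD1), the H3K4 demethylase of the CoREST complex, was far more abundant than Kdm1b, at 33.6, 25.4, 28.2 and 25.9 RPKM, and its log2 ratio at D2 was 0.03 (interval −0.07 to 0.13). Kdm4a was measured at 32.4, 38.0, 28.0 and 22.5 RPKM with a ratio at D2 of −0.76, and −0.54 after the correction. The 2 transcripts of Kdm4a gave deposited ratios at D2 from −1.22 to −0.76, so the size depended on the transcript. Kdm4b was higher at D2 in both populations, with 11.8 and 19.5 RPKM in Ad-GFP cells against 12.6 and 18.3 RPKM in Ad-Cre cells, and log2 ratios of D2 to D0 of 0.73 and 0.53.

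The H3K4 demethylases of the KDM5 family were led by Kdm5c, at 41.4, 46.0, 44.5 and 29.3 RPKM. Their log2 Ad-Cre/Ad-GFP ratios at D2 were −0.50 for Kdm5a, −0.35 for Kdm5b and −0.65 for Kdm5c, and after the correction 0.31, 0.27 and −0.32. For Kdm5a and Kdm5b the sign therefore depended on the correction. Kdm6b (JMJD3), which demethylates H3K27, was measured at 17.4 and 23.7 RPKM in Ad-GFP cells against 15.3 and 12.9 RPKM in Ad-Cre cells. Its ratio at D2 was −0.87 (interval −0.96 to −0.79), and −1.09 after the correction.

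The H3K9 demethylases Kdm3a, Kdm3b and Phf8 had log2 ratios at D2 of −0.97, −0.79 and −0.98, and corrected ratios of −0.30, −0.46 and −0.43. KDM3A is known for a role in the metabolic genes of brown fat. Kdm2b, a CXXC protein that demethylates H3K36 and brings a variant PRC1 to CpG islands, was measured at 9.48, 10.7, 11.5 and 5.69 RPKM. The Ad-Cre D2 library was low for it, with a ratio to Ad-GFP of −0.91 (interval −1.06 to −0.76) and −0.61 after the correction, and 29.7% of its windows matched elsewhere. Its paralog Kdm2a had a ratio of −0.11 and a corrected one of 0.41.

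Of 10 other demethylases, sirtuins and the acetyltransferase Hat1, 9 were expressed. Kdm7a, a demethylase of H3K9 and H3K27, was higher past 2.5-fold from D0 to D2 in Ad-GFP cells (172 to 2677 reads, log2 ratio 3.54), as 1 of the 9. In Ad-Cre cells 2 were higher, Kdm7a (153 to 607 reads, 2.10, corrected 3.0) and Sirt4 (1.38, corrected 0.97). At D2, Kdm7a was lower in Ad-Cre than Ad-GFP cells (−1.79, corrected −0.89), and at D0 none of the 9 passed the cutoff.

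The 9 acetyltransferases had a median Ad-Cre/Ad-GFP log2 ratio of −0.59 at D2, with 6 of 9 below the median of all expressed genes, a trend-corrected median of −0.19 with 5 of 9 below it, and a median of −0.06 at D0. Crebbp (CBP) and Ep300 (p300), the acetyltransferases of H3K27 at active enhancers, were at nearly equal levels at D0. Crebbp was measured at 19.7 and 17.4 RPKM in Ad-GFP cells against 18.9 and 17.3 RPKM in Ad-Cre cells, with a ratio at D2 of −0.01 (interval −0.09 to 0.07). Ep300 was measured at 20, 20.2, 19.1 and 12.6 RPKM, with a ratio at D2 of −0.68 (interval −0.76 to −0.61). The correction moved them to 0.33 and −0.03.

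Kat2b (PCAF) and Kat2a (GCN5), the paralogous enzymes that acetylate H3K9, parted. Kat2b held 298 and 682 reads in Ad-GFP cells against 448 and 173 in Ad-Cre cells, or 3.72, 6.38, 4.93 and 2.06 RPKM. The Ad-GFP library was the higher one at D2 and the Ad-Cre library the higher one at D0. Its Ad-Cre/Ad-GFP log2 ratio was 0.41 at D0 and −1.63 at D2 (interval −1.88 to −1.39), and the corrected ratio at D2 was −0.96. Because 56.8% of the Kat2b windows matched elsewhere in the genome, its counts are uncertain. Kat2a was measured at 15.8, 24.9, 20.2 and 23.7 RPKM, as deposited higher at D2 in both populations. The corrected log2 ratios of D2 to D0 were 0.815 with Ad-GFP and 0.039 with Ad-Cre. The Ad-Cre/Ad-GFP ratio of Kat2a at D2 was −0.07, or −0.42 after the correction.

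The MYST acetyltransferases had Ad-Cre/Ad-GFP ratios at D2 of 0.39 for Kat5 (TIP60), −0.90 for Kat6a (MOZ), −0.20 for Kat6b, −0.99 for Kat7 (HBO1) and −0.59 for Kat8 (MOF, the H4K16 acetyltransferase). The 4 transcripts of Kat5 gave ratios at D2 from −0.27 to 0.43, so its sign depended on the transcript. The corrected ratios, in the same order, were 0.002, −0.19, 0.45, −0.53 and −1.0. Kat8, with 132 to 380 reads per library and the shortest transcript of all 53 (1503 bases), had a ratio that the correction made lower, and 16.4% of its windows matched elsewhere. Kat6b was measured at 8.62 and 6.43 RPKM in Ad-GFP cells against 5.42 and 5.60 RPKM in Ad-Cre cells. Its lower level in Ad-Cre cells was at D0, with a log2 ratio of −0.67 (interval −0.80 to −0.53), and 23.6% of its windows matched elsewhere.

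Of 23 partner subunits of acetyltransferase complexes, all expressed, 1 was higher past 2.5-fold in Ad-GFP cells at D2 than at D0, Sgf29 (81 to 295 reads, log2 ratio 1.45), and 0 lower. Sgf29 was also the 1 subunit higher in Ad-Cre cells (1.35, corrected 0.60), where Supt20 was the 1 lower (−1.45, corrected −1.37). At D2, 1 was lower in Ad-Cre than Ad-GFP cells, Msl2 (−1.35, corrected −0.58), a subunit of the complex of KAT8, and 0 were higher, while after the correction 0 were lower and 1 was higher, Msl1 of the same complex. At D0, 0 of the 23 passed the cutoff.

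The zinc-dependent deacetylases, 10 expressed genes besides Hdac9, had a median Ad-Cre/Ad-GFP log2 ratio at D2 of 0.07, with 1 of 10 below the median of all expressed genes (−0.16). The trend-corrected median was 0.06, with 2 of 10 below it. At D0 their median was −0.17, with 7 of 10 below the median of all expressed genes (−0.02). Their median exon length was 2600 bases, shorter than the median of all expressed genes.

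Hdac7, a class IIa deacetylase that shuttles between nucleus and cytoplasm, was measured at 40.5 RPKM at D0 and 11.4 RPKM at D2 in Ad-GFP cells, against 35.5 and 26.4 RPKM in Ad-Cre cells. The Ad-GFP D2 library was the low one of the 4. Its level there was 3.54-fold lower than at D0 (log2 ratio −1.82, interval −1.92 to −1.73), and in Ad-Cre cells the ratio of D2 to D0 was −0.42 (interval −0.51 to −0.34). At D2 it was 2.31-fold higher in Ad-Cre than Ad-GFP cells (log2 ratio 1.21, interval 1.11 to 1.32), and the corrected ratio was 0.80. The 8 RefSeq transcripts of the gene gave ratios at D2 between 1.21 and 1.25, as they share most exons.

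Hdac5, a second class IIa enzyme, was lower at D2 than at D0 in Ad-GFP cells as well, with 26.9 and 11.9 RPKM (log2 ratio −1.17), but Ad-Cre cells were already lower at D0, with 15.4 RPKM against 12.1 RPKM at D2. At D2 the populations were at 11.9 and 12.1 RPKM, and the corrected ratio was −0.35. Hdac4, the third expressed class IIa member, was higher at D2 in both, with log2 ratios of D2 to D0 of 0.31 with Ad-GFP and 0.68 with Ad-Cre. The class IIa genes thus had no common course.

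Hdac11, the only class IV deacetylase, was lower in Ad-Cre cells at both days. It held 191 and 287 reads in Ad-GFP cells against 96 and 95 in Ad-Cre cells, or 4.45, 5.01, 1.97 and 2.11 RPKM. Both Ad-Cre libraries lay below both Ad-GFP libraries. The Ad-Cre/Ad-GFP log2 ratio was −1.17 at D0 (interval −1.54 to −0.81) and −1.24 at D2 (interval −1.59 to −0.91), and the corrected ratio at D2 was −1.69. An exon of Gm14573 on the other strand overlaps it, and the sources used here do not state whether counting used strand. HDAC11 is known as a repressor of brown adipocyte genes.

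The class I deacetylases, the catalytic subunits of the nuclear corepressor complexes, stayed within 2.5-fold in all comparisons. Hdac2 was measured at 30.4 and 42.2 RPKM in Ad-GFP cells against 50.6 and 40.0 RPKM in Ad-Cre cells, with a log2 ratio of 0.73 at D0 and −0.08 at D2 (corrected 0.14). Hdac3, the deacetylase of the NCOR complexes, was measured at 36.0, 41.2, 24.7 and 38.9 RPKM, with the low library in Ad-Cre cells at D0 (ratio −0.54). Hdac8 lay between 6.01 and 9.49 RPKM. Hdac1 was measured at 16.7, 12.7, 15.2 and 21.6 RPKM with a ratio at D2 of 0.77 (corrected 0.70), but 93.8% of its windows matched elsewhere, so its counts are uncertain.

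The class IIb enzymes were Hdac6, a tubulin deacetylase, and Hdac10. Hdac6 was lower at D2 than at D0 in both populations, at 9.84 and 6.38 RPKM in Ad-GFP cells against 8.83 and 6.80 RPKM in Ad-Cre cells. Hdac10, known as a polyamine deacetylase, was measured at 4.56 and 4.71 RPKM in Ad-GFP cells against 4.98 and 10.1 RPKM in Ad-Cre cells. The Ad-Cre D2 library was the high one, with a log2 ratio to Ad-GFP of 1.09 (interval 0.88 to 1.31) and a corrected ratio of 0.66. The transcript with most reads for Hdac10 was the non-coding NR_028449, and its 4 transcripts gave ratios between 1.07 and 1.12.

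Of 23 partners of the deacetylases and KDM1A in the SIN3, NCOR, CoREST and NuRD complexes, the NuRD helicase Chd3 was lower past 2.5-fold at D2 than at D0 in Ad-GFP cells (59.2 to 7.31 RPKM, log2 ratio −3.02), and 0 were higher. In Ad-Cre cells 1 was lower, Chd3 (43.2 to 11 RPKM, −1.98, corrected −1.73), and 0 higher. At D2, Phf21a was higher in Ad-Cre than Ad-GFP cells (1.39), and Tbl1x, Gatad2b and Rcor1 were lower (−1.79, −1.36 and −1.33). Their corrected ratios were 1.87, −1.41, −1.48 and −1.10, and Phf21a then also passed the cutoff between the days in Ad-Cre cells (1.73). None of the 23 passed the cutoff at D0.

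The 3 sirtuins, deacetylases that use NAD, had unlike values. Sirt1 held 337 and 732 reads in Ad-GFP cells against 526 and 248 in Ad-Cre cells, or 5.02, 8.15, 6.90 and 3.52 RPKM. At D2 it was 2.32-fold lower in Ad-Cre than Ad-GFP cells (log2 ratio −1.21, interval −1.43 to −1.0), with a corrected ratio of −0.64. Sirt2 lay between 16.6 and 19.1 RPKM in the 4 libraries, and its corrected ratio at D2 was −0.49. Sirt6, which deacetylates H3K9, was measured at 13.7, 9.02, 10.0 and 12.8 RPKM. Its ratio at D2 was 0.51 (interval 0.29 to 0.72) as deposited and −0.32 after the correction, so its sign depended on the correction.

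The BET readers Brd2 and Brd3 were both abundant and parted at D2. The Brd3 gene lies on chromosome 2 from 27301099 to 27363182 on NCBI37/mm9 (minus strand). Its transcript NM_001113574 held 2293 and 3512 reads in Ad-GFP cells against 2943 and 8684 in Ad-Cre cells. These were 25.1, 28.8, 28.4 and 90.7 RPKM, so 3 libraries were close together and the Ad-Cre D2 library was high. Its level in Ad-Cre cells was 3.19-fold higher at D2 than at D0 (log2 ratio 1.67, interval 1.61 to 1.74), while the ratio in Ad-GFP cells was 0.20 (interval 0.12 to 0.27). At D2 it was 3.15-fold higher in Ad-Cre than Ad-GFP cells (log2 ratio 1.66, interval 1.60 to 1.71). With an exon length of 5308 bases it lay against the length trend, and the corrected ratio was 2.03. Its 3 transcripts gave the same ratio to within 0.001, and none of its windows matched elsewhere.

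Brd2, which like Brd3 holds paired bromodomains that bind acetylated histones, was measured at 69.5 and 64.1 RPKM in Ad-GFP cells against 63.3 and 49.2 RPKM in Ad-Cre cells. Its log2 ratio at D2 was −0.38 (interval −0.44 to −0.32), and −0.48 after the correction. Brd2 was thus the more abundant BET gene in the 3 other libraries and Brd3 in the Ad-Cre D2 library.

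The change between the days was then set side by side for the populations, as the difference of the 2 log2 ratios (Ad-Cre minus Ad-GFP). Past 2.5-fold, 2 of the 53 genes had a higher change in Ad-Cre cells, Hdac7 and Brd3 (background 11.3%), and 5 a lower one, Dot1l, Kdm1b, Kdm4c, Kat2b and Sirt1 (background 11.1%). The differences were 1.40 for Hdac7, 1.48 for Brd3, −2.21 for Dot1l, −1.41 for Kdm1b, −1.89 for Kdm4c, −2.03 for Kat2b and −1.67 for Sirt1. Past 1.5-fold of the median of all expressed genes, 7 were higher (background 29.5%) and 16 lower. The latter were 30.2% of the 53, slightly above the background of 28.1%. After the correction the counts were 11 higher (24.1% of all) and 11 lower (22.4% of all). After the correction Brd3 (1.84), Dot1l (−2.31) and Kat2b (−1.40) remained past 2.5-fold, where 7.79% of all expressed genes were higher and 7.49% lower, and Kdm4c had a difference of −1.32, just inside the cutoff.

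**Figure D4:**
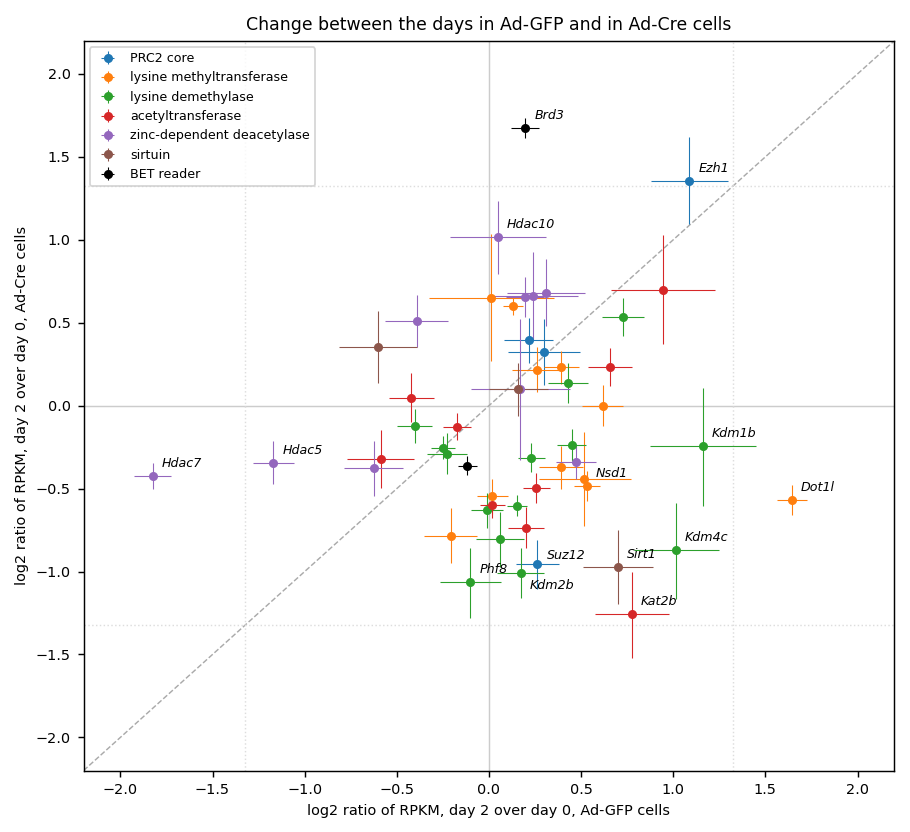
Log2 ratio of RPKM at D2 to D0 in Ad-GFP cells (x axis) and in Ad-Cre cells (y axis) for the 53 expressed genes, coloured by role, with exact binomial 95% intervals for counting error as bars. The dashed line marks equal change and the dotted lines 2.5-fold. Dot1l lies at 1.64 and −0.57, Hdac7 at −1.82 and −0.42, and Brd3 at 0.20 and 1.67, while Ezh1 is high on both axes.

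Proliferation was examined with 26 genes of DNA replication and mitosis, since several of the enzymes, Ezh2 and Suv39h1 among them, are known to follow the cell cycle. None of the 26 passed the 2.5-fold cutoff in any of the 4 comparisons. Their median log2 ratio was −0.14 with Ad-GFP and −0.30 with Ad-Cre from D0 to D2, and −0.22 for Ad-Cre to Ad-GFP at D2. Their summed level was 1179, 1063, 1104 and 949 RPKM, lowest in Ad-Cre cells at D2, and its part in the values above was not tested. Coordinates were found for all 54 genes, exons of 12 overlap another annotated gene, and 6 have more than 10% of their windows matching elsewhere in the genome.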

How the data were processed

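RNA-Seq of 4 conditions of Mll3-/-;Mll4 f/f brown preadipocytes was analysed, with 1 library each. The authors mapped 50-base reads to NCBI37/mm9 and deposited, for each RefSeq transcript, the raw read count on exons. The authors also deposited RPKM, in which the count is divided by exon length and mapped reads. How reads with several matches and strand were handled is not given in the sources used here. Depths were 15831915 to 22099995 counted reads per library, and 3 reads on 1 kb correspond to 0.131 to 0.174 RPKM.

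Ratios of RPKM were computed for 1 transcript per symbol, with exact binomial 95% intervals of the ratio of reads (scipy 1.17.1), which cover counting error only. For the difference of the changes a normal approximation of the counting error was used. Conditions were not tested against each other, as none is replicated. Expressed genes and the 2.5-fold cutoff follow the study's methods. Trends over exon length and GC content were taken as medians of 20 bins in 5 rounds (GC content known for 94.0% of expressed genes). TMM factors came from edgeR 4.0.16 and size factors from DESeq2 1.42.0 in R 4.3.3, without their tests. Windows of 50 bases from the longest protein-coding GENCODE transcript of each gene were searched against the genome with blastn 2.17.0. That transcript can differ from the RefSeq transcript whose reads were counted. Coordinates are those of the gene in GENCODE on NCBI37/mm9, and symbols and promoters came from RefSeq tables (GRCm38.p6). The exact interval procedure was tested on simulated data. All 54 genes were described, and genes of other lists were named only past 2.5-fold in the comparison at hand, at most 4 per list. Some genes of those lists are not reported here. The genes and lists were chosen with earlier results of these data known. The other software was matplotlib 3.10.9, pandas 2.3.3, numpy 2.4.6 and Python 3.11.15. Alternatives covered the denominator, trends, filters, a pseudocount, the interval bound, the transcript choice and other cutoffs.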

Additional observations from a re-analysis of the deposited data

Results flagged for a closer look

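The log2 ratio of D2 to D0 had opposite signs in Ad-GFP and Ad-Cre cells, with both counting intervals clear of 0, for 14 of the 53 expressed genes. With 1 library per condition the difference was not tested, and the share of all expressed genes with opposite signs was not computed. The count is therefore not read as a trait of these enzymes. Of the 14 genes, 12 were higher at D2 in Ad-GFP cells and lower in Ad-Cre cells. The difference between the log2 ratios, Ad-Cre minus Ad-GFP, was −2.21 for Dot1l, −2.03 for Kat2b, −1.89 for Kdm4c, −1.67 for Sirt1, −1.22 for Suz12, −1.01 for Nsd1, −0.96 for Suv39h2, −0.81 for Hdac2, −0.76 for Suv39h1, −0.75 for Kat6a, −0.69 for Kdm6b and −0.55 for Kdm4a. The other 2 were lower at D2 in Ad-GFP cells and higher in Ad-Cre cells, with differences of 0.91 for Hdac1 and 0.95 for Sirt6. With the trends over length and GC content divided out, 7 of the 14 still had opposite signs, namely Suv39h1, Dot1l, Kdm4c, Kat2b, Hdac1, Hdac2 and Sirt1.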

How the results depend on the processing

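No paired analysis was possible because each condition has 1 library, and for the same reason no replicate could be left out. Of the counts and medians recomputed under the alternatives, 237 stayed within 1.5 times or within the counting interval and 53 did not. Dividing by the counted reads moved the median log2 ratio of the 53 genes to −0.074 between the days in Ad-Cre cells and to −0.25 for Ad-Cre to Ad-GFP at D2. TMM factors moved the latter to −0.22 and DESeq2 size factors to −0.20, while the median of all expressed genes moved from −0.16 to −0.007 and 0.02, and DESeq2 size factors gave 0.054 in Ad-GFP cells. With each of these 3 denominators 2 genes were higher past 2.5-fold in Ad-Cre than Ad-GFP cells at D2 (Hdac7 and Brd3), and Kdm1b was no longer lower, there or for the difference of the changes. The length trend alone divided out gave 2 higher (Hdac7 and Brd3) and 1 lower (Kdm4c) at D2, with Dot1l, Kdm1b and Kat2b inside the cutoff, medians of −0.19 at D2, 0.057 between the days in Ad-Cre cells (a change of sign) and −0.038 for the difference of the changes. Length and GC content together gave 2 lower at D2 (Dot1l and Hdac11), a median of −0.044 between the days in Ad-Cre cells, and 1 higher and 2 lower for the difference of the changes. A pseudocount of 1 RPKM left 1 gene higher between the days in Ad-Cre cells and 1 lower at D2. With the interval bound past the cutoff, 1 was higher between the days in Ad-Cre cells and 1 for the difference of the changes. A 2-fold cutoff gave 4 higher and 2 lower in Ad-GFP cells, 3 lower in Ad-Cre cells, 1 lower at D0, 3 higher and 8 lower at D2, and 8 lower for the difference of the changes. A 4-fold cutoff left 0 in the comparisons of 2 libraries, and 0 higher and 2 lower for the difference of the changes. Shares of all expressed genes were not set beside the counts in this paragraph. The counts show how the results move with the processing, and are not read as a trait of these genes. Depth limits Kdm1b, Smyd3, Kat8 and Hdac11, with 95 to 403 reads per library, and the spread between cultures is unknown for all genes.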
